A study of Mus musculus with 9 samples.

Results

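Regulator of G protein signalling (RGS) genes were followed in the mouse breast carcinoma line D2A1-d after knockdown of Med1, a subunit of the Mediator complex. The 10 genes Rgs2, Rgs3, Rgs4, Rgs5, Rgs10, Rgs12, Rgs14, Rgs16, Rgs17 and Rgs19 were taken by symbol from the 55335 genes in the files, and each symbol had 1 identifier there. The family was chosen by the measured rise of Rgs16 against control with both hairpins, so that rise is given as a description, without a test. The grounds on which each relative was listed are not recorded.

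RNA was sequenced from cells transduced with the short hairpin RNA shMed1 #2, with the hairpin shMed1 #4, or with a non-targeting control hairpin (NTC), with 3 samples in each group. All groups share the D2A1-d background and the same serum-containing culture, and the labels give the genotype as Med1 knockdown for both hairpins and as WT for NTC. The labels call the samples biological replicates but do not say whether they came from separate transductions or cultures, so a p-value here reflects how far these libraries differ from one another, and part of that may be technical. Nor do they say whether the transduced cells were a pool or a clone, and no rescue of Med1 is part of the series.

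Library totals were 8123918 to 8879982 counts, and 13611 genes had enough counts to be tested. Levels are in CPM, which sets each library's counts on the same total, or in CPM per kb of exon where genes are set side by side. A count of 3 corresponds to 0.338 to 0.369 CPM, the level up to which a listed 0 says little, and this limit covers counting error only. Med1 stood at 22.0 to 25.1 CPM with shMed1 #2 and at 25 to 26.5 CPM with shMed1 #4, against 79.6 to 87.3 CPM in NTC. The markers of mesenchymal carcinoma cells summed to 4740 to 4950 CPM with shMed1 #2, 4940 to 5150 CPM with shMed1 #4 and 4190 to 4370 CPM in NTC. Vim and Fn1 made up nearly all of that sum, and the single markers did not follow it. Of 8 tested, 1 was called higher (Vim, 2770 against 1870 CPM in NTC) and 4 lower with shMed1 #2 (Col1a1, Col1a2, Pdgfra and Fn1, edgeR adjusted p under 0.05), and 2 were higher (Vim and Fn1) and 1 lower (Pdgfra) with shMed1 #4. Of 11 epithelial markers, Epcam, Krt5 and Cldn4 were at 0 in all libraries and only Krt8 and Krt18 had enough counts to be tested. The epithelial markers summed to 20.2 to 23.1 CPM with shMed1 #2 and 41.7 to 52.4 CPM with shMed1 #4, against 56.7 to 58.6 CPM in NTC. Both tested keratins were lower with both hairpins, Krt18 at 18.8 and 43.6 CPM with shMed1 #2 and shMed1 #4 against 50.6 CPM in NTC, and Krt8 at 1.92 and 3.47 CPM against 6.47 CPM. Other markers were level, such as Zeb1 at 55 and 54.3 CPM with shMed1 #2 and shMed1 #4 against 57.4 CPM in NTC. Over all genes tested 43.7% were called with shMed1 #2 and 28.2% with shMed1 #4. Marker lists this short say little against those shares. The part of these markers in the changes of the RGS genes was not tested.

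RGS proteins speed the hydrolysis of GTP by the alpha subunits of heterotrimeric G proteins, and so end the signal of a G protein-coupled receptor sooner. The members fall into subfamilies. The R4 subfamily (Rgs2, Rgs3, Rgs4, Rgs5, Rgs16) consists mostly of small proteins, the R12 subfamily (Rgs10, Rgs12, Rgs14) includes large scaffolds, and the RZ subfamily (Rgs17, Rgs19) carries a cysteine-rich stretch. Transcription of several R4 genes is known to be induced by receptor signalling itself.

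The rise of Rgs16 was not seen in those of its relatives that could be tested. Of the 9 relatives, 5 had enough counts to be tested. With either hairpin 0 of them were called higher in edgeR's quasi-likelihood test at an adjusted p under 0.05. Over all genes tested 21.8% were called higher with shMed1 #2 and 14% with shMed1 #4, so 0 of 5 is near the background. The highest upper end of their 95% intervals was a log2 fold change of 0.31 with shMed1 #2 and 0.33 with shMed1 #4, both for Rgs12. At an unadjusted p under 0.05 the count of higher relatives was also 0 with both hairpins, and DESeq2 called 0. Rgs2, another R4 member, was called lower with both hairpins. Rgs3, Rgs10, Rgs12 and Rgs19 were not called in any comparison. The other 4 relatives were at or close to the detection limit.

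The promoters of Rgs16 and Rgs2 are shown because these R4 genes moved in opposite directions. They lie on chromosome 1 in GRCm38.p6, Rgs16 on the plus strand (chr1:153740103-153740332) and Rgs2 on the minus strand (chr1:144004170-144004399). Each line gives, from RefSeq, the 230 bases that end 21 bases before the annotated start, read 5′ to 3′ on the gene's strand. Capitals mark GC boxes, here the letters CCGCCC, the reverse complement of GGGCGG.
Rgs16: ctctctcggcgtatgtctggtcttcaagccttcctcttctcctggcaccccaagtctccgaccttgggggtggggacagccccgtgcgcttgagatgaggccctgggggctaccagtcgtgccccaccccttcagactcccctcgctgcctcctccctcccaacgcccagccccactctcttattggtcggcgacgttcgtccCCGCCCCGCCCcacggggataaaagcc
Rgs2: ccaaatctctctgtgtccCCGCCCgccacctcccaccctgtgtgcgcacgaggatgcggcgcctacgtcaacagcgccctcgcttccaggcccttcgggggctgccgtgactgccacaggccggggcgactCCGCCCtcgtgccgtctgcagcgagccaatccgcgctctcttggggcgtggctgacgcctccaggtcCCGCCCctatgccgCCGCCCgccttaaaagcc

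The Rgs16 window had a GC content of 66.1% and held 2 GC boxes, which overlap by a single base and start 47 and 42 bases before the gene. The Rgs2 window had a GC content of 70.9% and held 4 GC boxes, starting 232, 119, 52 and 38 bases before the gene. A GC box, searched on both strands like every motif here, was present in 29.8% of 32817 promoter windows of the same length. GC boxes also lay in windows of Rgs3, Rgs10, Rgs12 and Rgs19, which were not called, and of Rgs17, which had no counts. They are therefore not particular to the genes that moved. Neither window held TATAAA (the TATA box, in 11.8% of windows), TGACGTCA (the cAMP response element, 1.28%), TGANTCA (the AP-1 site, 6.34%), AGGTCA (a nuclear receptor half-site, 13.1%), GGAATG (a TEAD site, 11.8%) or a CArG box (1.41%). Only these patterns were searched, so near matches to TATAAA, such as ataaaa and ttaaaa at the ends of the Rgs16 and Rgs2 windows, were not counted. These matches describe letters in short windows and say nothing of binding. Of the 10 genes, 9 had a promoter in the RefSeq table, and Rgs14 was the other one.

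Rgs16 encodes a small R4 protein that acts on Gi and Gq alpha subunits (ENSMUSG00000026475.7, protein-coding, chromosome 1, 153740349 to 153745468, GRCm38). It stood at 90.3, 97.2 and 85.9 CPM with shMed1 #2, at 44.4, 38.3 and 43.1 CPM with shMed1 #4, against 24.8, 20.7 and 20.3 CPM in NTC. The 3 groups did not overlap, and the samples with shMed1 #2 were the highest of the 9. The log2 fold change of Rgs16 against NTC was 2.06 (SE 0.0768) with shMed1 #2 and 0.94 (SE 0.0864) with shMed1 #4, which correspond to 4.16-fold and 1.91-fold. By fold it ranked 3 from the top of 13611 genes with shMed1 #2 and 78 with shMed1 #4.

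The 2 hairpin groups lay apart in Rgs16. Med1 RNA stood at 22 to 25.1 CPM with shMed1 #2 and at 25 to 26.5 CPM with shMed1 #4. Its part in this difference was not tested. With shMed1 #4 Rgs16 averaged 41.9 ± 3.20 CPM, against 91.1 ± 5.70 CPM with shMed1 #2 (SD, n = 3 each). The log2 difference was -1.12 (SE 0.0683). It rests on the values of both hairpin groups for which the family was chosen, so it too is a description, without a test.

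**Figure D1:**
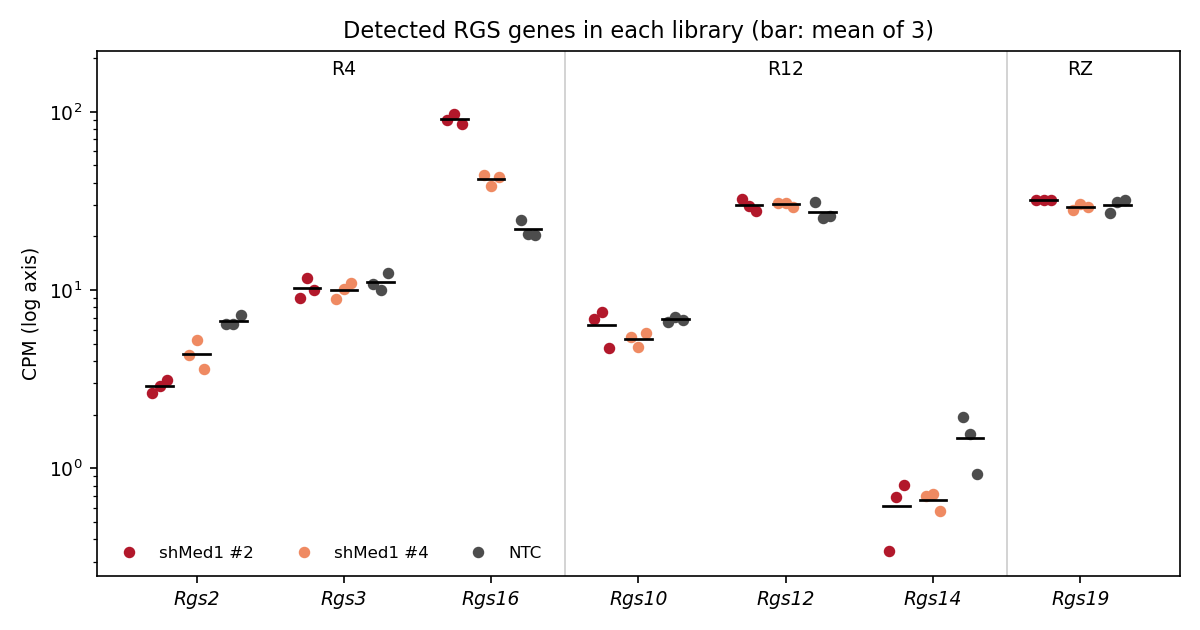
CPM (log axis) of the 7 RGS genes with more than 1 count per library, one point per library, by group, with a bar at the mean of 3; R4, R12 and RZ mark the subfamilies. Rgs16 is highest with shMed1 #2 (85.9 to 97.2 CPM) and lowest in NTC, Rgs2 runs the other way, and Rgs3 and Rgs12 have overlapping groups.

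Counts of Rgs16 meet those of an antisense gene. Gm28513, annotated on the opposite strand (153743552 to 153749324), shares 236 exon bases with Rgs16, and whether reads were counted by strand is not stated. It stood at 23.7, 25.4 and 24.8 CPM with shMed1 #2, at 12, 10.9 and 10.3 CPM with shMed1 #4, against 6.17, 7.58 and 6.35 CPM in NTC. Its log2 fold changes were 1.88 with shMed1 #2 (edgeR adjusted p = 2.13e-22) and 0.72 with shMed1 #4 (adjusted p = 6.61e-05). Without strand, reads of one cannot be told from those of the other, and this was not tested further. In the window of 200 kb on either side of Rgs16, 3 of 17 genes had enough counts to be tested, namely Gm28513, Teddm2 and Glul. Glul, which encodes glutamine synthetase and lies 154476 bases away, averaged 53.8 CPM with shMed1 #2 and 43.0 CPM with shMed1 #4, against 36.1 CPM in NTC (log2 fold changes 0.58 and 0.25, edgeR adjusted p = 4.64e-10 and 0.00922). Teddm2 averaged 8.60 CPM with shMed1 #2 and 6.60 CPM with shMed1 #4, against 5.76 CPM in NTC, and was called with shMed1 #2 (log2 fold change 0.58, edgeR adjusted p = 0.00448) but not with shMed1 #4 (0.20, adjusted p = 0.462). Among all genes tested, 21.8% were called higher with shMed1 #2 and 14% with shMed1 #4, and 3 genes say little against those shares. Around Rgs12, itself not called, 2 of 3 tested neighbours were higher with shMed1 #2 and 1 with shMed1 #4. Rgs8, the nearest R4 relative on the chromosome at 40026 bases from Rgs16, had 8 counts over the 9 libraries.

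Rgs2 encodes an R4 protein that acts mainly on Gq (ENSMUSG00000026360.9, chromosome 1, 143999338 to 144004161, minus strand). It stood at 2.64, 2.90 and 3.11 CPM with shMed1 #2, from 23, 25 and 27 counts. It stood at 4.30, 5.28 and 3.59 CPM with shMed1 #4, from 37, 44 and 31 counts, and at 6.41, 6.49 and 7.28 CPM in NTC, from 53, 54 and 63 counts. In bulk RNA, fewer cells that express a gene and less of its RNA per cell cannot be told apart. No sample with a hairpin reached the lowest NTC sample, and the 2 hairpin groups did not overlap either. Rgs2 fell by 1.22 on the log2 scale with shMed1 #2 (SE 0.212, edgeR adjusted p = 1.21e-06), to 0.429 of its NTC level. In that comparison 43.7% of all genes tested were called, and 21.9% of all genes tested were called lower, so 1 called relative of 5 is not more than the background. It fell by 0.62 with shMed1 #4 (SE 0.196, edgeR adjusted p = 0.0111), where 28.2% of all genes were called and 14.1% were lower.

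The fall of Rgs2 with shMed1 #2 kept its call in 17 of 17 alternative settings, including fits without a shMed1 #4 library, which keep all samples compared. The fall with shMed1 #4 lost its call in DESeq2 (adjusted p = 0.0616), without NTC replicate 3 (0.0591) and without shMed1 #4 replicate 3 (0.0768). Between the hairpins, Rgs2 averaged 4.39 ± 0.853 CPM with shMed1 #4 and 2.88 ± 0.234 CPM with shMed1 #2 (SD, n = 3 each). That difference of 0.60 (SE 0.231, 95% interval 0.14 to 1.06) lay close to the threshold (edgeR adjusted p = 0.0429). Rgs2 was the 1 relative of 5 called between the hairpins, against 26% of all genes tested, which is near the background. It passed in 9 of 17 alternatives and missed in 8, with adjusted p-values from 0.0248 to 0.216. It missed with no filter on low counts (0.0838), in DESeq2 (0.122), with only these groups in the fit (0.0532), and without any 1 of shMed1 #2 replicates 1, 2 and 3 or shMed1 #4 replicates 1 and 2 (0.123, 0.0868, 0.0611, 0.0746 and 0.216 in that order). The passes include the fits without an NTC library, which keep all samples of this comparison and so hardly put it to the test.

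Leukocyte markers, since blood cells carry much Rgs2, summed to 14.6 to 17.5 CPM with shMed1 #2 and 15.4 to 16.1 CPM with shMed1 #4, against 18.5 to 20.2 CPM in NTC. Among these markers, Cd3e, Itgam and Adgre1 were at 0 in all libraries, and the pan-leukocyte gene Ptprc averaged 0.0383, 0.0387 and 0.117 CPM with shMed1 #2, with shMed1 #4 and in NTC. Most of the sum was Csf1r, with 12.2 CPM in each hairpin group and 14.5 CPM in NTC. The part of these markers in the fall of Rgs2 was not tested.

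Rgs3, an R4 gene with a long exon set and many annotated transcripts, stood at 9.06, 11.7 and 10.0 CPM with shMed1 #2, at 8.94, 10.1 and 11.0 CPM with shMed1 #4, against 10.8, 9.98 and 12.5 CPM in NTC. The groups overlapped in every pairing. Its log2 fold change was -0.11 with shMed1 #2 (95% interval -0.40 to 0.17) and -0.15 with shMed1 #4 (-0.43 to 0.14), so a rise of the size seen for Rgs16 lay outside both intervals.

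Rgs4 and Rgs5 are R4 genes best known from neurons and from pericytes, the mural cells of small vessels. Over the 9 libraries Rgs4 had 1 count in all, in a library with shMed1 #2, and Rgs5 had 1 count in all, in an NTC library. No change of either was detectable at this depth. The 10 pericyte and smooth muscle markers summed to 36 to 41.3 CPM with shMed1 #2 and 51.5 to 72.2 CPM with shMed1 #4, against 81.6 to 93.8 CPM in NTC, and Kcnj8 and Abcc9 were at 0 in all libraries. Most of the sum was Pdgfrb, a marker shared with mesenchymal cells, at 30.8 CPM with shMed1 #2, 48.4 CPM with shMed1 #4 and 79.0 CPM in NTC. The tested markers did not move together. Of 4 tested, 0 were higher and 2 lower with shMed1 #2 (Pdgfrb and Des), and 2 were higher (Mcam and Cnn1) and 1 lower (Pdgfrb) with shMed1 #4. The shares called over all genes were 43.7% and 28.2%, against which 4 genes say little. Mcam averaged 6.15 and 11.8 CPM with shMed1 #2 and shMed1 #4 against 5.11 CPM in NTC, and Cnn1 1.08 and 1.25 CPM against 0.514 CPM. Cnn1 had a mean above 10 counts only with shMed1 #4, the group where it was called higher. Its call is therefore no support for a rise.

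Neither R12 member with enough counts for the main test, Rgs12 or Rgs10, passed it. Rgs12 encodes a large scaffold with a GoLoco motif that binds inactive Gi alpha subunits. It stood at 32.6, 29.5 and 27.8 CPM with shMed1 #2, at 30.8, 30.9 and 29.3 CPM with shMed1 #4, against 31.0, 25.4 and 25.9 CPM in NTC, with overlap in each pairing. Its log2 fold changes were 0.13 (95% interval -0.05 to 0.31, edgeR adjusted p = 0.249) and 0.15 (-0.04 to 0.33, adjusted p = 0.244). Rgs12 shares 467 exon bases with the antisense gene Gm43791, which limits its counts in the same way as for Rgs16.

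Rgs10, a small R12 protein best known from immune cells and microglia, stood at 6.88, 7.53 and 4.72 CPM with shMed1 #2, at 5.46, 4.80 and 5.78 CPM with shMed1 #4, against 6.65, 7.09 and 6.82 CPM in NTC. All samples with shMed1 #4 lay below all NTC samples, whereas the group with shMed1 #2 overlapped NTC and held the widest spread, a coefficient of variation of 23.1%. With shMed1 #4 the log2 fold change of -0.36 (95% interval -0.72 to 0.01) did not pass (edgeR adjusted p = 0.149), and with shMed1 #2 it was -0.10 (-0.46 to 0.25, adjusted p = 0.669).

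Rgs14, a scaffold with a GoLoco motif like Rgs12, had too few counts for the main test. It had 3, 6 and 7 counts with shMed1 #2, 6, 6 and 5 counts with shMed1 #4, and 16, 13 and 8 counts in NTC. Each hairpin group lay below NTC, at 0.417 and 0.451 of the NTC mean CPM. In an exact permutation test of 3 samples against 3 each comparison gave p = 0.1 (two-sided), the smallest p this design allows. With no filter on low counts edgeR gave a log2 fold change of -1.23 (adjusted p = 0.0446) for shMed1 #2 and -1.12 (adjusted p = 0.104) for shMed1 #4. In the replicates-left-out fits in which Rgs14 passed the filter, the edgeR adjusted p ran from 0.00881 to 0.115 for shMed1 #2 and from 0.0235 to 0.118 for shMed1 #4. Rgs14 passed there only through its counts in NTC, the group where it is highest, and not without NTC replicate 1 or 2. Those p-values are therefore no support for a fall.

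Rgs19, the RZ protein first described as a partner of Gi3 alpha, was not called against NTC or between the hairpins. It stood at 32.1, 32.2 and 32.0 CPM with shMed1 #2, at 28.1, 30.3 and 29.2 CPM with shMed1 #4, against 27.2, 31.3 and 31.9 CPM in NTC. The samples with shMed1 #2 lay just above all others, the nearest at 32.0 CPM against 31.9 CPM in NTC. Its log2 fold changes of 0.09 (95% interval -0.08 to 0.26, edgeR adjusted p = 0.415) and -0.05 (-0.22 to 0.13, adjusted p = 0.738) did not pass. Rgs17, the other RZ member, had 0 counts in all 9 libraries, which allows up to 0.369 CPM in the shallowest. Rgs20, the third RZ gene of the mouse and outside the list, averaged 8.76 CPM with shMed1 #2, 8.87 CPM with shMed1 #4 and 7.70 CPM in NTC, and was not called (edgeR adjusted p = 0.386 and 0.391).

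**Figure D2:**
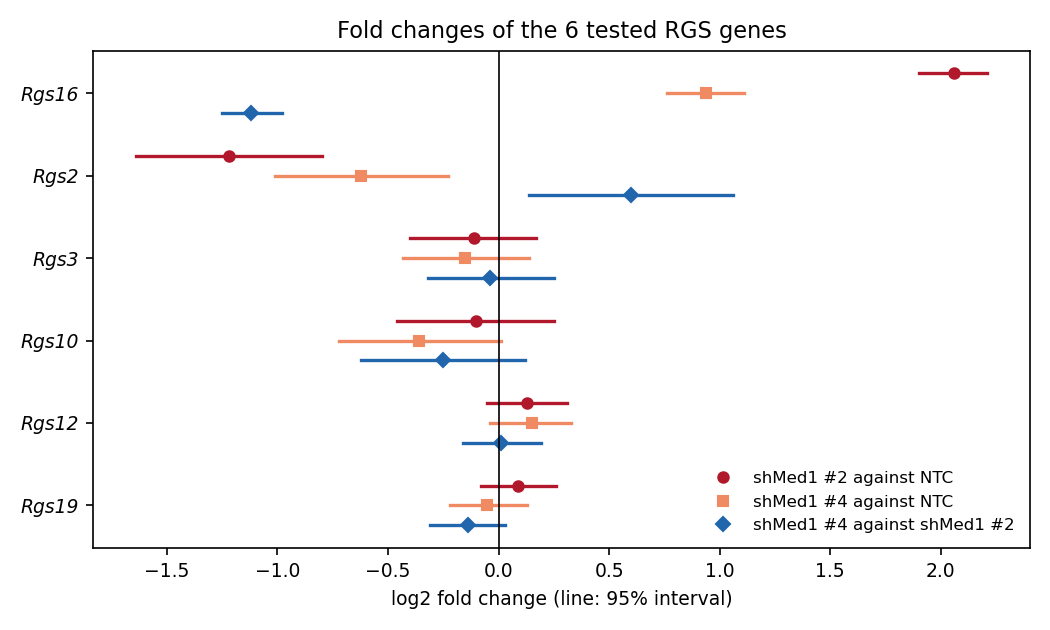
Log2 fold change (x axis) with its 95% interval for the 6 RGS genes with enough counts, for each hairpin against NTC and for shMed1 #4 against shMed1 #2. Rgs16 lies at 2.06 and 0.94 and Rgs2 at -1.22 and -0.62 against NTC, whereas the intervals of Rgs3, Rgs10, Rgs12 and Rgs19 all include 0.

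Set side by side per kb of exon, Rgs16 and Rgs19 were the leading members in every library. The length used was that of all annotated exons of a gene merged, over 17 transcripts for Rgs3, 18 for Rgs12 and 1 for Rgs16. Levels of genes with many transcripts may thus be understated, and the SDs below cover only the spread of replicates. Rgs16 reached 39.0 ± 2.44 CPM per kb with shMed1 #2, 17.9 ± 1.37 with shMed1 #4 and 9.38 ± 1.06 in NTC (SD, n = 3 each). Rgs19 had 14.4 ± 0.0541, 13.1 ± 0.485 and 13.5 ± 1.14 CPM per kb in the same order of groups. Thus Rgs19 was the higher of the pair in NTC and Rgs16 the higher with either hairpin, and in none of the 3 groups did their ranges overlap. In NTC Rgs10 (4.01 ± 0.131) and Rgs12 (3.23 ± 0.364) followed, then Rgs2 (1.85 ± 0.132), Rgs3 (1.03 ± 0.118) and Rgs14 (0.348 ± 0.121).
With shMed1 #2 the order below Rgs19 was Rgs10 (3.73 ± 0.862), Rgs12 (3.53 ± 0.283), Rgs3 (0.950 ± 0.124), Rgs2 (0.794 ± 0.0645) and Rgs14 (0.145 ± 0.0568), where neither Rgs10 and Rgs12 nor Rgs3 and Rgs2 were apart beyond their spread. With shMed1 #4 Rgs12 (3.57 ± 0.106) and Rgs10 (3.13 ± 0.292) were followed by Rgs2 (1.21 ± 0.235), Rgs3 (0.926 ± 0.0950) and Rgs14 (0.157 ± 0.0180), and there the ranges of Rgs2 and Rgs3 overlapped.

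The sum over the 9 relatives differed little between groups, at 23.5 ± 1.10 CPM per kb with shMed1 #2, 22.1 ± 0.503 with shMed1 #4 and 24 ± 0.889 in NTC (SD, n = 3 each). Rgs16 therefore made up 62.3% ± 0.656 of the summed family level with shMed1 #2 and 44.8% ± 2.5 with shMed1 #4, against 28.1% ± 3.05 in NTC. The ratio of Rgs16 to Rgs2 was 49.3 ± 5.60 with shMed1 #2 and 15.3 ± 3.80 with shMed1 #4, against 5.09 ± 0.845 in NTC. These shares rest on the Rgs16 values that led to the choice of the family and are a description. They also depend on the merged exon lengths.

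**Figure D3:**
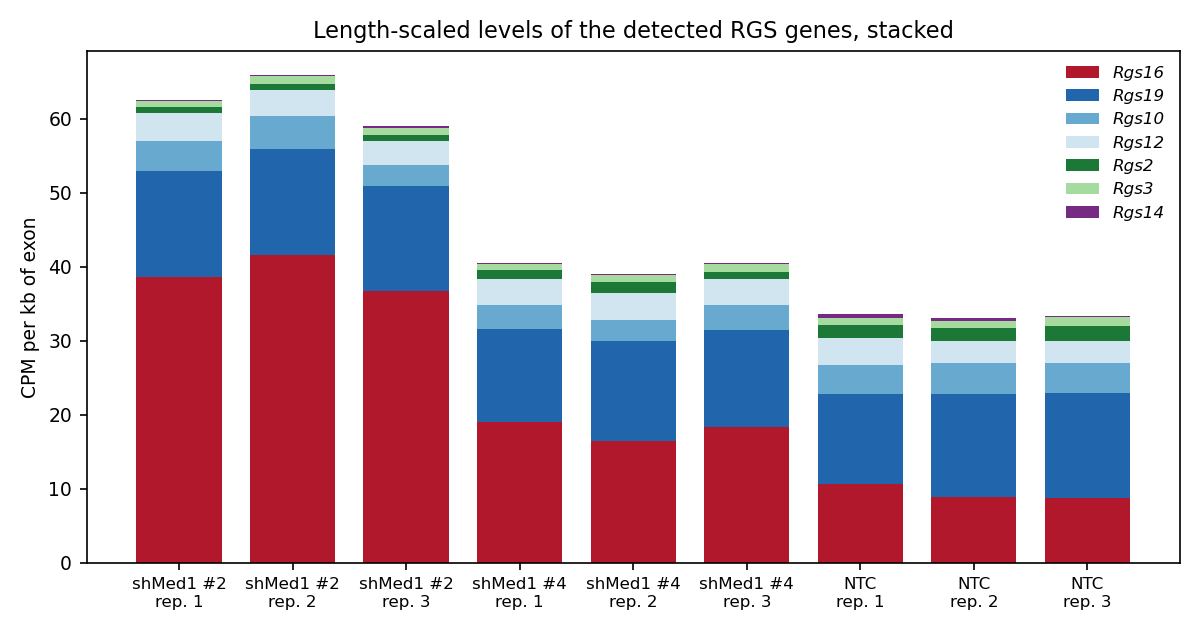
CPM per kb of exon (y axis) stacked over the 7 detected RGS genes in each of the 9 libraries. The red Rgs16 part grows to 36.7 to 41.6 with shMed1 #2 and to 16.4 to 19.0 with shMed1 #4, against 8.69 to 10.6 in NTC, while the other parts together stay between 21.6 and 24.7.

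Among the 14 RGS genes and anchoring genes outside the list, 6 had no counts and 2 could be tested. Rgs20 is given above. Rgs9bp, which encodes an anchor for R7 RGS proteins, averaged 1.57 CPM with shMed1 #2, 1.96 CPM with shMed1 #4 and 3.26 CPM in NTC and fell with both hairpins (log2 fold changes -1.04 and -0.73, edgeR adjusted p = 0.00302 and 0.0481). Rgs11, an R7 gene, had 5 to 13 counts per library, and Rgs1, Rgs6, Rgs7, Rgs13 and Rgs18 had none. Of 12 tested proteins that carry an RGS homology domain, such as axins, G protein-coupled receptor kinases and RGS-type exchange factors, 3 were higher and 2 lower with shMed1 #2, and 0 were higher and 1 lower with shMed1 #4. Over all genes tested 43.7% were called with shMed1 #2 and 28.2% with shMed1 #4, so this list was near the background with shMed1 #2 and below it with shMed1 #4. The receptor kinase genes Grk5 (log2 fold change 0.26) and Grk6 (0.25) rose with shMed1 #2 and the exchange factor gene Arhgef1 fell (-0.29), while with shMed1 #4 these genes were at 0.11, 0.07 and -0.04 and were not called. The sorting nexin gene Snx13 fell with both (-0.15 and -0.19).

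Genes of the alpha subunits on which RGS proteins act moved in both directions. Of 11 tested alpha subunits, 1 was higher and 3 lower with shMed1 #2 (median log2 fold change -0.03, against -0.003 for all genes), and 2 were higher and 5 lower with shMed1 #4 (median -0.08, against 0.001). Those calls are a share near the 43.7% of all genes with shMed1 #2 and above the 28.2% with shMed1 #4. Gna11, an alpha subunit of the Gq class, rose by 0.27 and 0.25 with shMed1 #2 and shMed1 #4 (edgeR adjusted p = 0.00016 and 0.000566). Gnao1 fell (-0.66 and -0.24, adjusted p = 2.03e-14 and 0.002), and Gna12 fell (-0.41 and -0.16, adjusted p = 3.09e-08 and 0.041). Gnaz, the alpha subunit that RZ proteins prefer, fell with shMed1 #4 (-0.76, adjusted p = 0.0223), and its value with shMed1 #2 was -0.58 (adjusted p = 0.0615). Another alpha subunit gene, 1 in all, was called in opposite directions with the 2 hairpins.
Of 10 tested beta and gamma subunits, 3 were higher and 3 lower with shMed1 #2, and 0 were higher and 2 lower with shMed1 #4. Those shares lie within a few calls of the 43.7% of all genes with shMed1 #2 and the 28.2% with shMed1 #4. Gng7 fell (-1.32 and -0.69) and Gnb4 fell (-1.21 and -0.73) with both hairpins, and stood at 8.19 and 4.97 CPM in NTC.

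Of 14 tested other modulators of G proteins, 3 were higher and 6 lower with shMed1 #2, and 2 were higher and 3 lower with shMed1 #4. That share is above the 43.7% of all genes with shMed1 #2 and near the 28.2% with shMed1 #4. Arrb1, which encodes the beta-arrestin that uncouples and internalises receptors, rose by 0.83 and 0.43 on the log2 scale (edgeR adjusted p = 6.13e-15 and 2.35e-05). It averaged 47.6 CPM with shMed1 #2 and 36.1 CPM with shMed1 #4, against 26.8 CPM in NTC. Nucb1 fell (-0.69 and -0.37), Nucb2 fell (-0.55 and -0.56) and Ccdc88c, which encodes the non-receptor exchange factor Daple, fell (-0.67 and -0.43). Of 11 tested effectors, 3 were higher and 2 lower with shMed1 #2, and 3 were higher and 0 lower with shMed1 #4, near the shares of all genes in both comparisons. Those higher with both were Pik3cb (0.28 and 0.20), Adcy7 (0.20 and 0.19) and Trio (0.17 and 0.16).
Of 23 tested receptors, 9 were higher and 8 lower with shMed1 #2 and 5 were higher and 4 lower with shMed1 #4. That is a share of calls above the 43.7% of all genes with shMed1 #2 and above the 28.2% with shMed1 #4, with both directions in like number. None of these lists was tested as a whole, and in lists this short a few calls more or fewer than that share say little. Adgrg1, an adhesion receptor, rose by 1.32 and 1.03, and the orphan receptor gene Mrgpre by 1.45 and 0.96. Ackr3, which encodes a scavenging receptor for the chemokine CXCL12, fell (-1.21 and -0.93), and the orphan receptor gene Gpr176 fell (-0.84 and -1.15). In the receptor list 1 gene was called in opposite directions with the 2 hairpins. Both comparisons use the same NTC libraries.

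**Figure D4:**
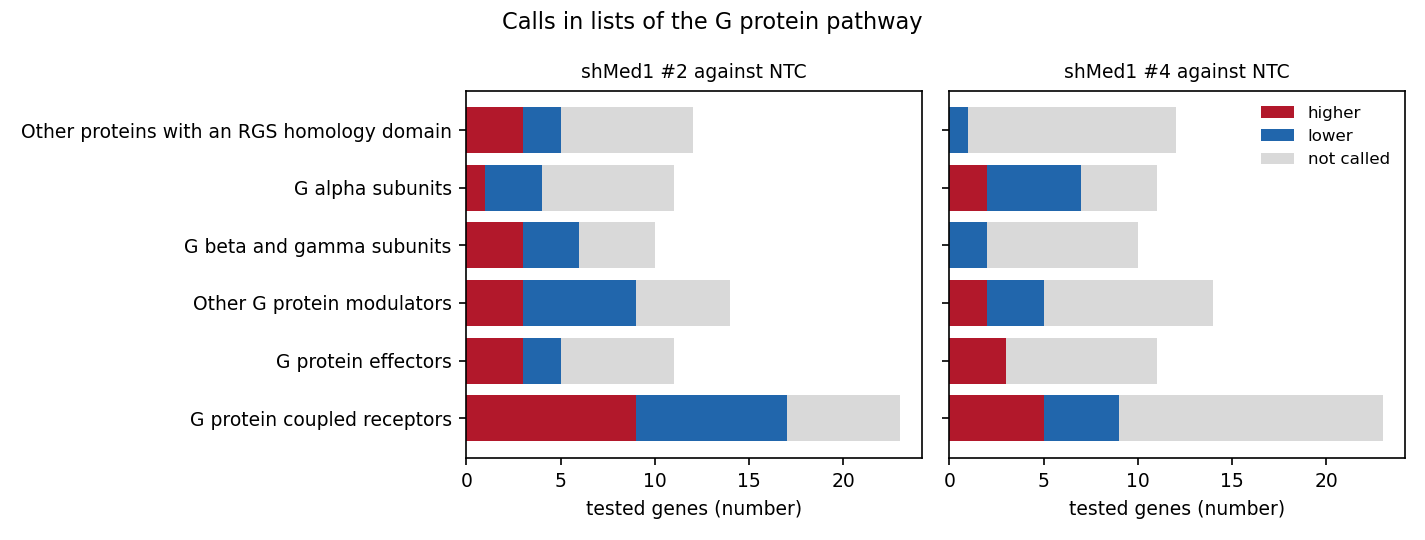
Number of tested genes (x axis) called higher, called lower or not called in 6 lists of the G protein pathway, for shMed1 #2 against NTC and for shMed1 #4 against NTC. The receptor list holds 9 higher and 8 lower of 23 genes with shMed1 #2, and no list moved in a single direction with that hairpin. With shMed1 #4 the effectors had 3 higher and 0 lower. The beta and gamma subunits had 0 higher and 2 lower there, and the proteins with an RGS homology domain 0 and 1.

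The genes whose pattern was most like that of Rgs16 were found over the 9 libraries as those with the smallest Euclidean distance in log2 CPM, centred on the NTC mean, among 10502 named genes. Among the 5 nearest were Havcr2 (distance 0.590), Lims2 (0.796), Itga6 (1.03) and Gpr17 (1.31), and their values are a description of that choice. Havcr2, the gene of the immune receptor TIM-3, averaged 13.2 CPM with shMed1 #2 and 7.18 CPM with shMed1 #4, against 3.74 CPM in NTC. Lims2, a focal adhesion adaptor gene, averaged 42.8 and 25.3 CPM with shMed1 #2 and shMed1 #4, against 13.3 CPM in NTC. Gpr17, a G protein-coupled receptor gene, averaged 9.99 CPM with shMed1 #2 and 4.69 CPM with shMed1 #4, against 3.21 CPM in NTC, and its samples with shMed1 #4 spread from 3.48 to 5.78 CPM.

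**Figure D5:**
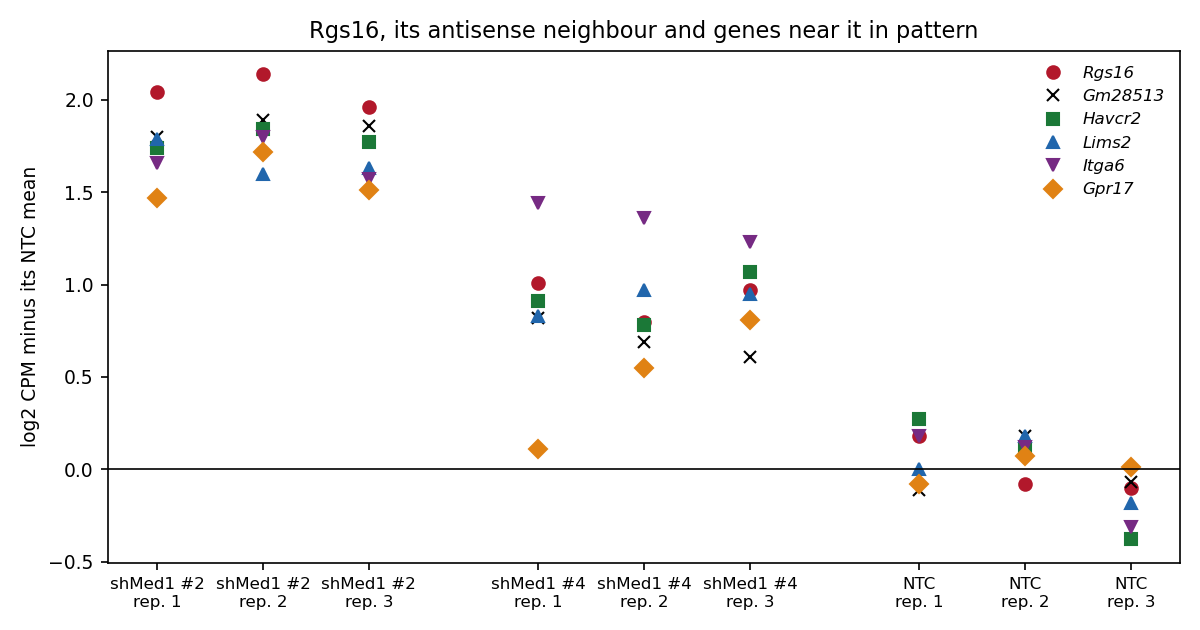
Log2 CPM minus the gene's NTC mean (y axis) in each of the 9 libraries for Rgs16, the antisense gene Gm28513 and 4 of the genes nearest to Rgs16 in pattern (Havcr2, Lims2, Itga6 and Gpr17). Rgs16 lies at 1.96 to 2.14 with shMed1 #2 and at 0.80 to 1.01 with shMed1 #4, and Gm28513 at 1.80 to 1.89 and 0.61 to 0.82.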

How the data were processed

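The deposited files hold raw read counts, a file for each sample. The submitters' processing notes name STAR and HTSeq with build GRCm38 (mm10); versions, annotation release and strand setting are not stated there. Symbols, positions and exon lengths came from GENCODE M21 on GRCm38 (55154 of 55335 identifiers matched without version). Genes were kept by edgeR's filterByExpr (13611 genes), scaled by TMM (factors 0.982 to 1.02) and tested by edgeR 4.0.16 (R 4.3.3) with a robust quasi-likelihood fit of 9 samples and Benjamini-Hochberg adjustment over all genes, with calls at adjusted p under 0.05. Each hairpin was set against NTC, and shMed1 #4 against shMed1 #2. A chi-square of 1.55 to 2.53 per degree of freedom between replicate libraries exceeded sampling noise, so they were kept as separate samples.

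The members and lists were chosen with earlier results of these data known. All members were named, with Med1, up to 4 genes per list (those called with both hairpins first, by size), the 5 genes nearest Rgs16 and neighbours that bear on a member; Rgs20 and the markers named were chosen after their values were seen, as were the motifs. Some genes that this rule names are not reported. Scripts were tested on simulated data. Alternatives were other scaling, filters, DESeq2 1.42.0, no robust option, only the groups compared, a replicate block and each library left out. Figures used matplotlib 3.10.9.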

Additional observations from a re-analysis of the deposited data

Results flagged for a closer look

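A difference between the hairpin groups drew attention to 2 of the 6 tested RGS genes, while 26% of all genes tested were called between the hairpins, so such a count is near the background. Rgs16 had a log2 difference of -1.12 between shMed1 #4 and shMed1 #2. That value is a description, since the family was chosen for the Rgs16 values of both hairpin groups. Rgs2 differed by 0.60, in the opposite direction and close to the threshold, and that call was lost in 8 of 17 alternatives. No group had the 4 samples needed to look for a sample far from the others.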

How the results depend on the processing

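The counts of all genes called stayed within 1.5 times the main count in all 17 alternatives. No relative of Rgs16 was called higher against NTC in any of them. With no filter on low counts 2 relatives were called lower with shMed1 #2 (1 in the main analysis), the other being Rgs14, and 0 were called higher between the hairpins (1 in the main analysis, Rgs2). In DESeq2 the count of lower relatives with shMed1 #4 was 0 and that of higher ones between the hairpins was 0. With only the groups compared in the fit the count between the hairpins was also 0. Leaving out 1 library at a time gave 1 to 2 lower relatives with shMed1 #2, 0 to 2 with shMed1 #4 and 0 to 1 higher between the hairpins. Fewer samples let Rgs14 pass the filter there through its higher NTC counts, so its calls in those fits are no support for a fall. For the other changes the cause was not tested. The log2 ratio of Rgs14 between the hairpins, 0.11, became -0.17 without shMed1 #2 replicate 1 and ran up to 0.35 when other libraries were left out. Same-numbered samples did not deviate together (correlations from -0.041 to 0.042), so no pairing by number was seen. A correlation over all genes cannot exclude a shared step that touched few genes. A replicate block gave 5891, 3786 and 3461 calls over all genes, against 5947, 3837 and 3540, and changed no call of a member. Counts below about 10 per library, as for Rgs14, limit what depth allows.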
